A study of Mus musculus with 4 samples.

Results

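Bromodomain proteins are the readers of acetylated lysine, and JQ1 is a small molecule made to occupy that pocket in one branch of them, the BET proteins. The genes described here are those on a list of 36 mouse bromodomain genes that could be measured in T cells treated with JQ1. A gene counted as measured where a row of the array table was annotated to exactly 1 gene symbol, and a gene with several such rows was represented by the brightest one, by its average on the 4 arrays. By this rule 25 of the 36 genes were found, among 14860 genes in all. Kat2b and Sp100 had only a row shared with another gene, and Crebbp, Brd1, Baz1a, Cecr2, Atad2b, Taf1, Brwd3, Kmt2a and Ash1l had no row naming them, so these 11 were not analysed here.

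The treated group was naive CD4 T cells given 150 nM JQ1, and the control group was the same kind of cells given the solvent DMSO, with 2 arrays each and 48 hours as the labelled time of both. All cells came from the spleens of C57BL/6 mice of unstated age and were purified with magnetic beads. In both groups they were stimulated with beads carrying antibodies to CD3 and CD28 in the presence of IL-6, IL-23 and TGF-β1, with IFN-γ and IL-4 blocked by antibodies, a mixture that favours the IL-17-producing helper T cells called TH17. The treatment text also speaks of 4 days of stimulation, and whether replicates are separate mice or cultures is not labelled. The p-values therefore measure only how far these samples scatter, which may be technical.

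A bromodomain is a bundle of helices with a pocket that holds an acetylated lysine, most often on a histone tail. Proteins that carry one include co-activators that hand the elongation machinery to RNA polymerase II, enzymes that add acetyl groups, motor subunits and scaffolds of chromatin remodellers, and co-repressors. In T cells BET proteins are known for their part at the genes of cytokines and lineage factors that are switched on after stimulation. JQ1 competes with acetylated lysine for the pockets of the BET proteins, and so acts on the proteins and not directly on their transcripts.

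Values are log2 signals after RMA, the authors' normalization for this array type. A change is the log2 signal with JQ1 minus that with DMSO, and its SE is the moderated one from limma. Each p-value is two-sided, from a limma fit over all 14860 genes, and an adjusted p is Benjamini-Hochberg adjusted over those genes with a threshold of 0.05. Precision is limited by the number of arrays: with 2 in each group an exact permutation test can give no p under 0.33.

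No bromodomain gene passed the test between JQ1 and DMSO cells. The 25 adjusted p-values of the limma fit lay between 0.42 and 0.971, and 1 of the 14860 genes passed, or 0.00673%. At an unadjusted p below 0.05 there was 1 of 25, Baz2b with a lower signal, against a background of 8.26% of all genes lower and 1.72% higher, and of 11.4% lower among genes above the median brightness. That count rests on the brightest row of each gene, and the dimmer second rows of Pbrm1 and Zmynd8 were also lower at such a p. The changes ran from -0.66 for Zmynd8 to 0.26 for Brd2, with a median of -0.19, beside a median of -0.09 for all genes and -0.12 for the 7430 genes above the median brightness. The data also bounded the changes from above: the 95% interval lay inside a 2-fold change in either direction for 24 of the 25, as it did for 86.2% of all genes, and Zmynd8 was the exception.

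**Figure D1:**
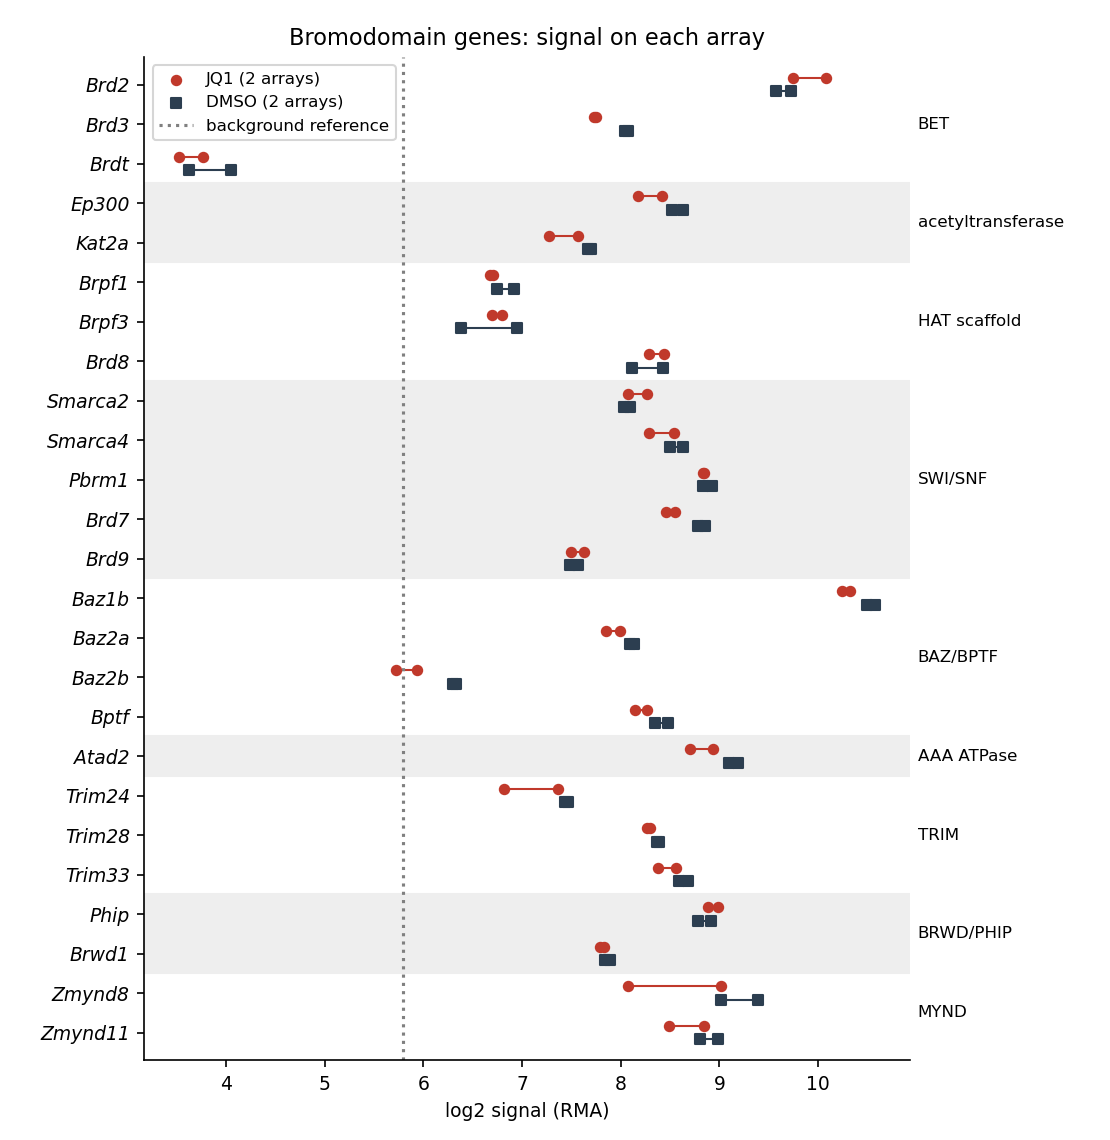
Log2 signal (horizontal axis) of the 25 bromodomain genes on each array, grouped by role, with red circles for the 2 JQ1 arrays and dark squares for the 2 DMSO arrays, each pair joined by a line. The dotted line is the background reference of 5.80. Brdt lies to its left on all 4 arrays, the JQ1 arrays of Baz2b straddle it, and the JQ1 circles of Brd2 lie to the right of its DMSO squares.

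BET proteins carry paired bromodomains and recruit the factors that release paused RNA polymerase II. Brd2, which is expressed in most tissues, had log2 signals of 9.74 and 10.07 with JQ1, against 9.57 and 9.73 with DMSO. Both JQ1 arrays lay above both DMSO arrays, by 0.019 at the nearest pair, and Brd2 was the 1 member of 25 with that arrangement, which 10% of all genes showed. Its change was 0.26 (SE 0.18, limma adjusted p = 0.684), with an interval from -0.18 to 0.71. Without JQ1 replicate 2 it was 0.10, and without JQ1 replicate 1 it was 0.43.

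Brd3, the close relative of Brd2, had 7.75 and 7.73 with JQ1, against 8.04 and 8.07 with DMSO. Both JQ1 arrays were below both DMSO arrays and the replicates lay close together in each group. The change was -0.32 (SE 0.14, limma adjusted p = 0.529), with an interval from -0.67 to 0.03. Brdt, the BET protein of male germ cells, had 3.53 and 3.77 with JQ1, against 3.63 and 4.05 with DMSO. All of these lay under 5.80, the 95th percentile of the mean signals of 800 olfactory and vomeronasal receptor genes, a yardstick for background that was picked once the values were known. Brdt was the 1 member under it in both groups.

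Brd2 and Brd3 therefore lay on opposite sides of 0. A difference between a pair of genes on the same array does not depend on a shift common to that array, so it was also followed across arrays. The log2 signal of Brd2 minus that of Brd3 was 1.99 and 2.34 with JQ1, against 1.53 and 1.65 with DMSO, and the groups did not overlap. That separation, and with it the exact p below, was fixed in advance, since Brd2 was higher and Brd3 lower without overlap. Neither adds support to the values of the single genes. The difference was larger by 0.58 (SE 0.19) with JQ1. Its two-sided exact permutation p was 0.33, the smallest that this design can give, and it was 0.555 after Benjamini-Hochberg adjustment over 5 such pairs of related genes, which were chosen after their values were seen. Only the change of such a difference can be read, since signals of different rows cannot be set against each other.

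The bases upstream of the start sites of Brd2 and Brd3 are shown because these 2 BET genes lay on opposite sides of 0, and those of Baz2b because it was the 1 member at an unadjusted p below 0.05. Each stretch is the 250 bases before an annotated start, from RefSeq on the GRCm38.p6 build, and for Brd2, which has 3 starts in the table, the most upstream one was used. All 3 genes lie on the minus strand, and the stretches are at chr17:34122608-34122857, chr2:27475399-27475648 and chr2:60125741-60125990. Capitals mark matches, on either strand, to 6 motifs chosen after the sequences were seen: the NRF1 core CGCATGCG, the cyclic AMP response element TGACGTCA, the GC box GGGCGG, the CAAT box CCAAT, the TATA box TATAAA and the E box CACGTG.
Brd2: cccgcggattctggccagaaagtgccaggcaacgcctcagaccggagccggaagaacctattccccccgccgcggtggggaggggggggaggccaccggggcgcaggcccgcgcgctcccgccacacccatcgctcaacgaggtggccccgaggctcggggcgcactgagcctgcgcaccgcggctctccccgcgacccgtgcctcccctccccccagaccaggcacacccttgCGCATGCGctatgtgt
Brd3: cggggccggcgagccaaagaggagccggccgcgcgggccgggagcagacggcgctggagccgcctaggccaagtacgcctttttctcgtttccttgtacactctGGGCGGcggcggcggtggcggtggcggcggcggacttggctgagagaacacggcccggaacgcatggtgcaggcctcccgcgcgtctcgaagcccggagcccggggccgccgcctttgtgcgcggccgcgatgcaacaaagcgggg
Baz2b: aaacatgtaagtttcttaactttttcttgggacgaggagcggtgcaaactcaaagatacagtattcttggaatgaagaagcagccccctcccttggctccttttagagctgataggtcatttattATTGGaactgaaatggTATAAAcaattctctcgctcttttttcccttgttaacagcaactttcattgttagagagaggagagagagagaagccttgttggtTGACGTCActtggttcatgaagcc

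The Brd2 stretch held the NRF1 core 9 bases before the start, found in 1.55% of the 32851 stretches of the same length in the table, and the Brd3 stretch held a GC box, found in 32.7%. The Baz2b stretch held TGACGTCA (in 1.55% of all stretches), CCAAT on the opposite strand (33.8%) and TATAAA (12.4%), and none of the 3 held the E box (6.02%). The dinucleotide CG occurred 27 times in the Brd2 stretch and 37 times in that of Brd3, against 4 times in that of Baz2b, where the median over all stretches was 6. Over the 33 starts listed for the members the median was 22, with a range from 1 to 42, so the Baz2b stretch was low among them. Promoters were listed for 22 of the 25 members. The sequences are given as a description, and no factor's binding was measured.

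The measured acetyltransferases with a bromodomain are Ep300, the co-activator p300, and Kat2a, the catalytic subunit of the SAGA and ATAC complexes. Ep300 had 8.17 and 8.42 with JQ1, against 8.63 and 8.52 with DMSO, a change of -0.28 (SE 0.16, limma adjusted p = 0.625). Kat2a had 7.28 and 7.56 with JQ1, against 7.67 and 7.70 with DMSO, a change of -0.26 (SE 0.16). In both genes the JQ1 arrays lay below the DMSO arrays, with JQ1 replicate 1 the lowest.

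Among the scaffolds of acetyltransferase complexes, Brpf1 and Brpf3 hold together the complexes of the KAT6 and KAT7 enzymes and Brd8 belongs to the TIP60 complex. Brpf1 was at -0.14 (SE 0.15), Brpf3 at 0.08 (SE 0.23) and Brd8 at 0.09 (SE 0.17). The arrays of Brpf3 with DMSO, at 6.95 and 6.38, enclosed those with JQ1, at 6.70 and 6.80. The signs of Brpf3 and Brd8 turned without DMSO replicate 2, to -0.20 and -0.06.

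The SWI/SNF remodellers slide and evict nucleosomes. Brd7, a subunit of the PBAF form of the complex, had 8.46 and 8.55 with JQ1, against 8.78 and 8.86 with DMSO, without overlap, and a change of -0.32 (SE 0.14, limma adjusted p = 0.537). Brd9, a subunit of the non-canonical form, was at 0.03 (SE 0.15), with an interval from -0.34 to 0.40, and Pbrm1, the polybromo subunit of PBAF, was at -0.04 (SE 0.14). The alternative ATPases were at 0.10 (SE 0.15) for Smarca2 and -0.15 (SE 0.16) for Smarca4. The arrays of the 2 groups overlapped for these 4 genes. Pbrm1 has a second row of its own on the array, with 7.94 and 8.07 with JQ1, against 8.43 and 8.34 with DMSO. Its change was -0.38 (SE 0.15, unadjusted p = 0.0454, adjusted p = 0.488, limma over all 14996 rows naming 1 gene). The 2 rows of Pbrm1 thus did not give the same picture.

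Bptf is the large subunit of the NURF remodeller, and the BAZ proteins are partners of ISWI-type ATPases. For all 4 measured genes of this kind both JQ1 arrays lay below both DMSO arrays in the deposited values, an arrangement that 31.4% of all genes and 38.9% of the brighter ones showed. It held for 1 of them, Baz2b, after a further quantile normalization and after cyclic loess, and for 2 after centring. Baz2b had 5.73 and 5.94 with JQ1, against 6.33 and 6.30 with DMSO, a change of -0.48 (SE 0.15, unadjusted p = 0.0235, limma adjusted p = 0.42) and an interval from -0.86 to -0.09. One of its JQ1 arrays lay under the background reference. The interval reached 0 for the others, Baz1b at -0.26, Bptf at -0.21 and Baz2a at -0.19 (SE 0.14 to 0.15). Baz1b, the WSTF protein of replicating chromatin, had 10.24 and 10.32 with JQ1, against 10.58 and 10.49 with DMSO. Baz2a, the nucleolar TIP5 protein, had 7.85 and 7.996 with JQ1, against 8.10 and 8.13 with DMSO. The log2 signal of Baz2a minus that of Baz2b was 2.13 and 2.06 with JQ1, against 1.77 and 1.83 with DMSO. The difference was larger by 0.29 with JQ1 (exact permutation p = 0.33, adjusted p = 0.555 over the 5 pairs). Its SE of 0.047 comes from these differences alone, without limma's moderation, so it cannot be set beside the SEs of single genes.

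Atad2, an AAA ATPase co-activator known from proliferating cells, had 8.70 and 8.93 with JQ1, against 9.10 and 9.19 with DMSO. The groups did not overlap and the change was -0.33 (SE 0.16, limma adjusted p = 0.563). Of the TRIM co-regulators, Trim24 had 6.82 and 7.36 with JQ1, against 7.44 and 7.47 with DMSO, a change of -0.36 (SE 0.22). The 2 JQ1 arrays of Trim24 differed more from each other than the nearer of them did from the DMSO arrays. Trim33, a regulator of SMAD signalling, was at -0.17 (SE 0.15) and Trim28, the KAP1 co-repressor, at -0.10 (SE 0.14). Phip was at 0.08 (SE 0.15) and its relative Brwd1 at -0.06 (SE 0.14).

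The MYND-type readers Zmynd8 and Zmynd11 bind modified histone tails through linked reader domains. Zmynd8 showed the change farthest from 0 and the widest spread among the members. It had 8.07 and 9.01 with JQ1, against 9.39 and 9.02 with DMSO, so JQ1 replicate 2 and DMSO replicate 2 lay 0.0045 apart and JQ1 replicate 1 stood alone. The change was -0.66 (SE 0.34, limma adjusted p = 0.575), with an interval from -1.51 to 0.19. It was -0.19 without JQ1 replicate 1 and -1.135 without JQ1 replicate 2. The second row of Zmynd8 had 7.99 and 7.82 with JQ1, against 8.27 and 8.42 with DMSO, without overlap, and JQ1 replicate 1 was not the lowest array there. Its change was -0.44 (SE 0.16, unadjusted p = 0.0346, adjusted p = 0.458, limma over all 14996 rows naming 1 gene). Zmynd11 was at -0.23 (SE 0.18), with overlapping groups.

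**Figure D2:**
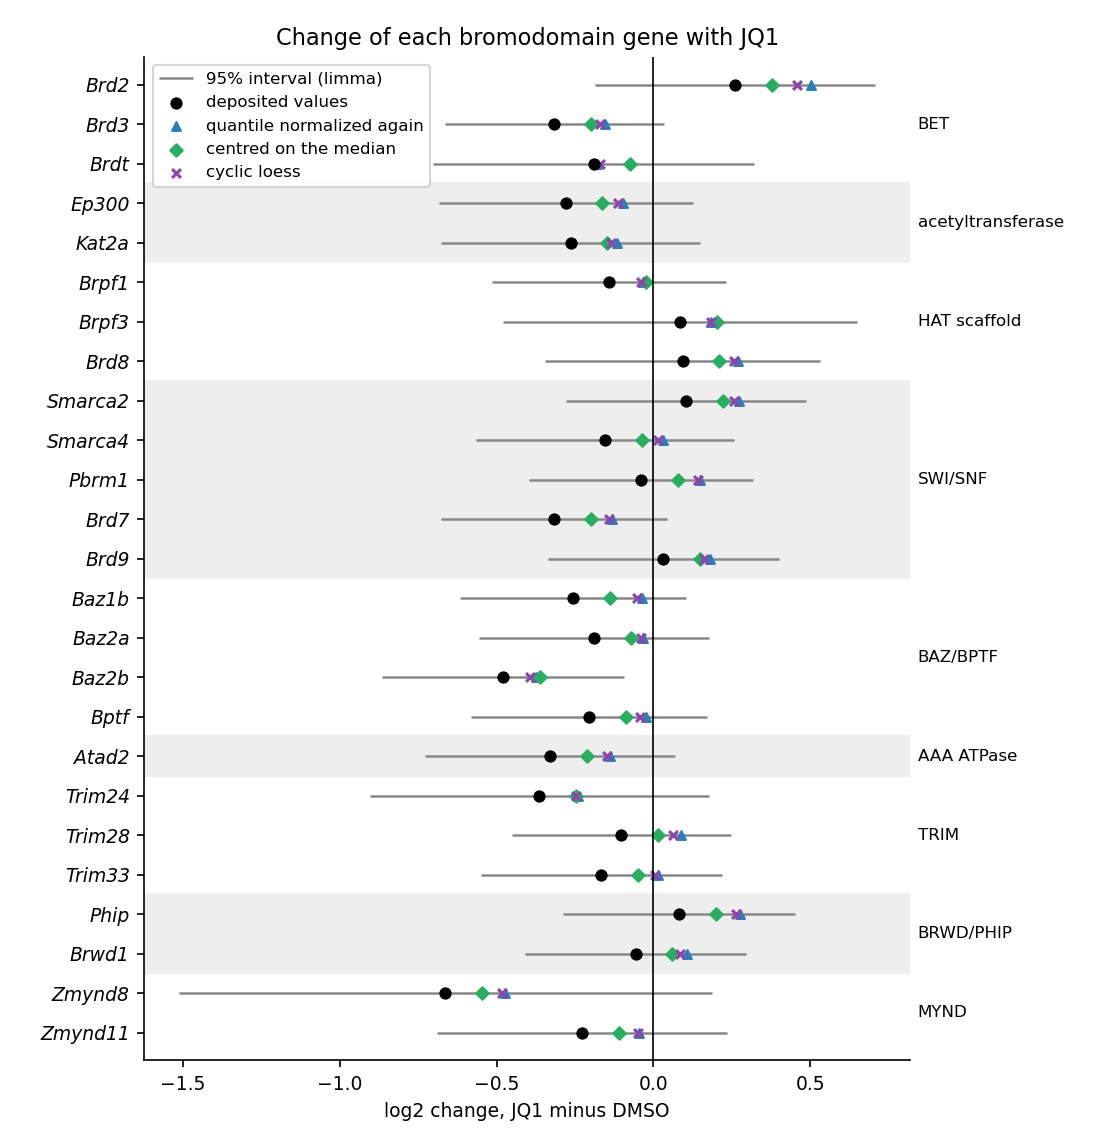
Log2 change, JQ1 minus DMSO (horizontal axis), of the 25 bromodomain genes by role: black points and grey lines give the deposited values with limma's 95% interval, and coloured marks the change after 3 other scalings of the arrays. The interval of Baz2b alone lies clear of 0 in the deposited values, and each scaling moves nearly all members to the right.

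How the members stood as a set depended on the scaling of the arrays and on a single array. In the deposited values both JQ1 arrays lay below both DMSO arrays for 15 of the 25 members (60%), against 31.4% of all genes and 38.9% of those above the median brightness, and above them for 1 (4%), against 10% of all genes and 9.76% of the brighter ones. After a further quantile normalization the counts were 6 below and 6 above, against 18.6% and 21.9% of all genes. After each array was centred on the median over all named genes they were 6 and 4, against 17.2% and 22.8%, and after cyclic loess between the arrays they were 6 and 5, against 19.8% and 20.4%. The lower share, 6 of 25 or 24%, lay nearer to that of all genes after each of these scalings than in the deposited values. The median change was -0.03 after quantile normalization, -0.07 after centring and -0.04 after cyclic loess, beside medians of 0.02, 0.03 and 0.0035 for all genes.

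Of the 25 members, 20 had a change of the same sign in the deposited values and after all 3 scalings, 14 below 0 and 6 above. Brd3, Ep300, Brd7, Baz2b and Atad2 had both JQ1 arrays below both DMSO arrays in all 4, and Brd2 had both above in all 4. These counts were not made over all genes, so whether the members stand out by them cannot be said. The shares that follow are for 1 scaling at a time, a condition easier to meet than all 4 together. In the deposited values 31.4% of all genes were lower without overlap and 10% higher. After single scalings 17.2% to 19.8% were lower and 20.4% to 22.8% higher. Brd2 was at 0.50 after quantile normalization (unadjusted p = 0.0251, limma adjusted p = 0.49), 0.38 after centring and 0.46 after cyclic loess (unadjusted p = 0.0329). A higher signal at an unadjusted p below 0.05 was found for 4.1% of all genes after quantile normalization and 3.67% after cyclic loess. Brd3 was at -0.15 after quantile normalization, -0.20 after centring and -0.17 after cyclic loess. The signs of Pbrm1, Trim28 and Brwd1 turned under each of the 3 scalings, and those of Smarca4 and Trim33 under quantile normalization and cyclic loess.

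JQ1 replicate 1 was the lowest of the 4 arrays for 15 of the 25 members, a count that was not made over all genes. It lay below JQ1 replicate 2 for 20 of them, against 54.4% of all genes and 66.6% of those above the median brightness. As deviations from each gene's mean over the 4 arrays, the medians of the members were -0.165 and -0.01 on the JQ1 arrays, against 0.12 and 0.07 on the DMSO arrays. Those of the genes above the median brightness were -0.11 and -0.02 on the JQ1 arrays, against 0.09 and 0.04 on the DMSO arrays. JQ1 replicate 1 was thus also the lowest array for the brighter genes in the median. Without JQ1 replicate 1 the median change of the members was -0.09, the same to 2 decimals as that of all genes (-0.09). Without JQ1 replicate 2 it was -0.27, again beside -0.09 for all genes. Of the 25 members 24 were above the median brightness, and the median of the brighter genes without 1 array was not computed. Whether this dependence on 1 array is particular to the members therefore cannot be said.

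**Figure D3:**
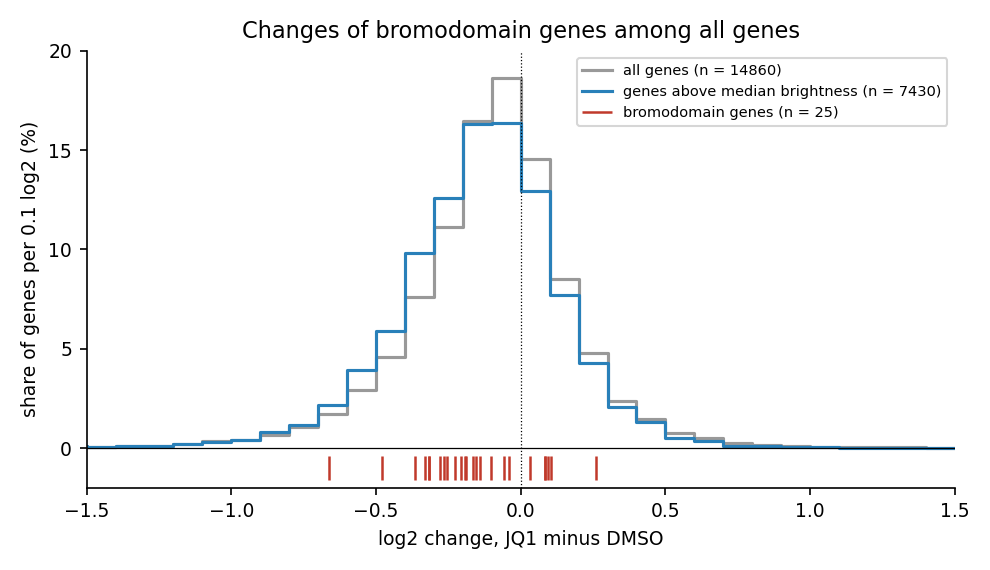
Share of genes (vertical axis, percent per 0.1 log2 unit) by log2 change, JQ1 minus DMSO (horizontal axis), for all 14860 genes in grey and the 7430 genes above the median brightness in blue, with a red tick under the axis for each of the 25 bromodomain genes. The ticks run from -0.66 to 0.26, inside the body of both distributions.

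Genes of cell division were also lowest on JQ1 replicate 1 as a sum. Of 15 measured genes on a list of 18, which included Mki67, Top2a and the mitotic kinase gene Aurka, none passed over all genes (smallest limma adjusted p = 0.259, Aurka), 6 were lower at an unadjusted p below 0.05 and 13 had both JQ1 arrays below both DMSO arrays, against 11.4% and 38.9% of the genes above the median brightness. After each of the 3 scalings 3 were lower at that p and 12 had no overlap. Their median change was -0.41 in the deposited values and -0.25 after quantile normalization, and all 15 were lower on JQ1 replicate 1 than on JQ1 replicate 2. Their log2 signals summed to 125.8 and 129.8 on the JQ1 arrays, against 135.1 and 134.1 on the DMSO arrays, and those of the 25 bromodomain genes to 196.9 and 201.4 on the JQ1 arrays, against 203.8 and 202.7 on the DMSO arrays. The part of cell division in the values of the bromodomain genes was not tested. In bulk samples fewer cells of a type and less RNA per cell cannot be told apart.

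Of the T cell markers Cd4, Cd3d, Cd3e, Cd3g, Cd5 and Cd28, all 6 lay above the background reference, between 8.64 and 11.15 with JQ1, against 8.70 and 11.38 with DMSO, with overlapping groups. All 7 measured TH17 markers had both JQ1 arrays below both DMSO arrays in the deposited values, against 31.4% of all genes. The same held after each scaling, against 17.2% to 19.8% of all genes. Their median change in the deposited values was -1.37 (smallest limma adjusted p = 0.0901). The mean lay under the background reference for 2 of these 7 with JQ1 and 1 with DMSO. Of 5 measured B cell markers the mean lay under the background reference for 4 with JQ1 and 2 with DMSO, and their log2 signals summed to 26.6 and 25.1 with JQ1, against 26.4 and 26.9 with DMSO. Of the CD8 T cell markers Cd8a and Cd8b1, Cd8a lay under the reference with JQ1 and neither did with DMSO, and the sum was 11.0 and 12.2 with JQ1, against 12.9 and 12.9 with DMSO. Of 3 measured natural killer markers all lay under the reference with JQ1 and 2 with DMSO, where Klrd1 was above it, and the sum was 14.3 and 14.6 with JQ1, against 16.6 and 16.1 with DMSO. Of 7 measured myeloid markers Itgam, Csf1r, Adgre1 and Cd14 lay under it in both groups, and the sum was 41.7 and 39.8 with JQ1, against 36.4 and 38.9 with DMSO. The other myeloid markers were Cd68, at -0.20, and the calprotectin genes S100a8 and S100a9. S100a9 had 9.07 and 8.42 with JQ1, against 5.89 and 7.88 with DMSO, a change of 1.86 (SE 0.65, unadjusted p = 0.0324, limma adjusted p = 0.448), and S100a8 was at 1.19 (SE 0.60), with overlapping groups and a DMSO mean under the reference. The part of other cells in the members' values was not tested.

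The genes that work beside the bromodomain proteins gave a similar picture, and none on any of the 8 lists below passed over all genes. The counts below are at an unadjusted p below 0.05 in the deposited values, where 8.26% of all genes were lower and 1.72% higher. After quantile normalization 5.09% of all genes were lower at that p and 4.1% higher, after centring 4.57% and 3.85%, and after cyclic loess 5.42% and 3.67%. Of 11 measured acetyltransferases without a bromodomain, 2 were lower and 0 higher at an unadjusted p below 0.05, with a median change of -0.14. They were Hat1, which acetylates new histones (-0.51, SE 0.15, limma adjusted p = 0.39), and Kat6b (-0.44, SE 0.15). After quantile normalization the count was 0 (unadjusted p = 0.0552 for Hat1 and 0.11 for Kat6b). After centring and after cyclic loess the count was 1, with Hat1 still lower and Kat6b not. Among 16 lysine deacetylases, the erasers of the mark, the counts were 2 and 0 and the median -0.06. The 2 were Sirt2 (-0.50, SE 0.14, limma adjusted p = 0.39) and Hdac4 (-0.45, SE 0.16), and none was left after quantile normalization (unadjusted p = 0.0518 and 0.082). After centring and after cyclic loess 1 deacetylase was left, Sirt2. Of 6 readers with YEATS or double PHD finger domains, which also bind acylated lysine, none was at an unadjusted p below 0.05 (median -0.08). Mllt1 was at -0.22 and Phf10 at -0.18, and Phf10 turned to 0.03 after quantile normalization and 0.02 after cyclic loess.

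Among the partners within complexes, 17 measured SWI/SNF subunits without a bromodomain had 1 lower and 1 higher gene at an unadjusted p below 0.05 (median -0.11). These were Actl6a, an actin-related subunit (-0.51, SE 0.18), and Bcl7b (0.54, SE 0.17, limma adjusted p = 0.403), of which Bcl7b stayed at an unadjusted p below 0.05 after each scaling and Actl6a after none. Of 15 subunits of SAGA and ATAC, the complexes of Kat2a, 3 were lower and 1 higher (median -0.21), and of 17 partners of the BRPF and TIP60 complexes 4 were lower and 1 higher (median -0.13). The lower ones included Atxn7 (-0.52, SE 0.18) and the ATPase gene Ruvbl2 (-0.60, SE 0.16). Kat6b and Actl6a, already counted above, were also among the lower BRPF and TIP60 partners, so the counts of these lists are not separate. After each scaling none of the SAGA and ATAC subunits was lower at that p, Atxn7 included, and 2 of the BRPF and TIP60 partners were, Ruvbl2 among them. The higher BRPF and TIP60 partners numbered 3 after quantile normalization, 2 after centring and 3 after cyclic loess. The higher SAGA and ATAC subunits numbered 1 after each scaling.

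In the deposited values the higher gene on both lists was Trrap, the large scaffold shared by SAGA and TIP60. It had 7.91 and 7.88 with JQ1, against 7.24 and 7.25 with DMSO (0.65, SE 0.14, unadjusted p = 0.00446, limma adjusted p = 0.307). The other row of Trrap had 7.47 and 7.62 with JQ1, against 7.55 and 7.37 with DMSO, a change of 0.09 (SE 0.16) with overlapping groups, so the 2 rows of this gene disagreed.

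Of 10 TFIID subunits other than Taf1, 1 was lower and none higher at an unadjusted p below 0.05 (median -0.20). It was Taf9b, a paralog of Taf9, with 7.22 and 7.24 with JQ1, against 8.09 and 8.08 with DMSO. The replicates lay close together and the groups far apart, with a change of -0.86 (SE 0.14, unadjusted p = 0.00122, limma adjusted p = 0.227), while Taf6 was at -0.34 (SE 0.21). Of 5 partners of ISWI remodellers 1 was lower, the histone-binding protein gene Rbbp7 (-0.51, SE 0.17), which did not stay at that p after any of the 3 scalings, and Pole3 was at -0.53 (SE 0.21, unadjusted p = 0.0525), with a median of -0.33 for the list.

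**Figure D4:**
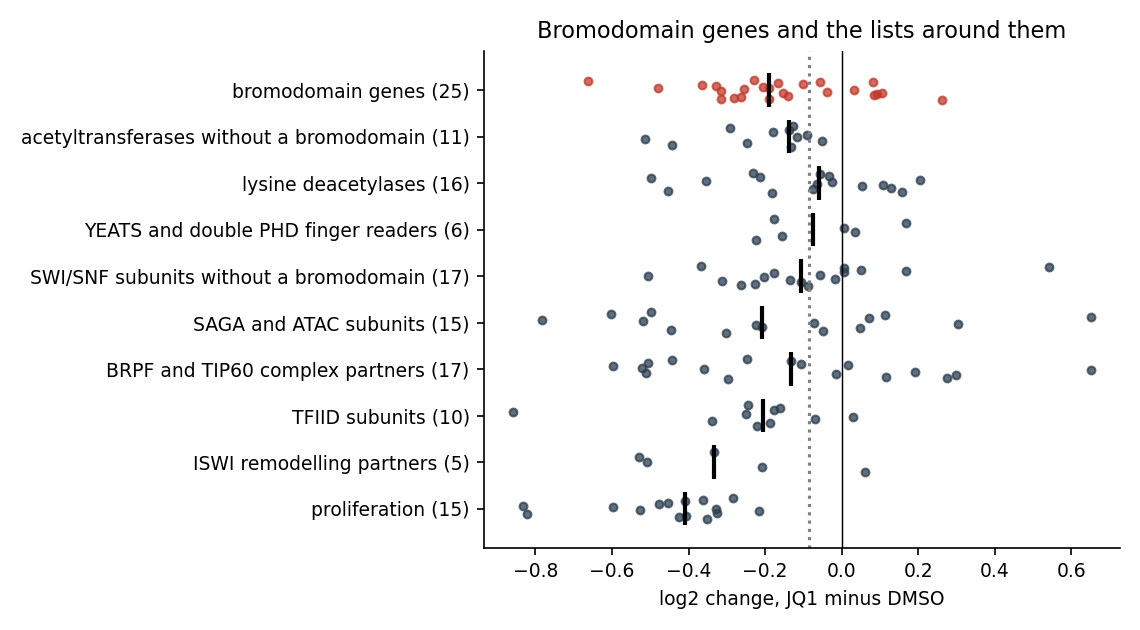
Log2 change, JQ1 minus DMSO (horizontal axis), of each gene of the bromodomain set (red) and of 9 lists around it (dark), with the number of measured genes in brackets; thick black lines are medians and the dotted line is the median of all genes, -0.09. The medians run from -0.06 for the lysine deacetylases to -0.41 for the genes of proliferation.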

How the data were processed

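Per the submitters' processing notes, the authors made the deposited log2 values with RMA (background correction, quantile normalization and probe summary) run in Affymetrix Expression Console. What a row holds, and the version, is not given in the sources used here. Since the notes name hg19, a human build, for mouse samples, no gene coordinates are printed apart from those of the RefSeq promoter table. Of 23332 rows, 14996 named 1 gene, 1019 several and 7317 none in the platform annotation; 135 genes had several rows. No filter on dim genes was applied. The fit used limma 3.58.1 in R 4.3.3 (lmFit, eBayes; 2 residual and 3.43 prior degrees of freedom), and the scripts were tested on simulated data. Figures were drawn with matplotlib 3.10.9. The bromodomain genes and all lists were chosen with earlier results of these data known. Every member is named; from each other list the up to 2 genes with the smallest unadjusted p are named, and Mki67 and Top2a as examples only. Marker lists are described by counts and sums over all their measured genes; S100a8, S100a9, Cd68 and Klrd1 were named after their values were seen. The alternatives were 3 scalings, 2 brightness filters, averaging the rows of a gene, a variance trend, a robust prior, a replicate block and leaving out each array.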

Additional observations from a re-analysis of the deposited data

How the results depend on the processing

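No bromodomain gene passed over all genes under any of the 13 alternatives in limma; the smallest adjusted p of a member there was 0.212, Baz2b among genes above the median of mean signal. The number of all genes past the test was 9 above the 25th percentile of mean signal, 50 above the median, 3 with a variance trend, 0 with the replicate block and 0 in each fit without 1 array. At an unadjusted p below 0.05 the lower members numbered 0 after quantile normalization, 0 after centring, 2 with the mean of all rows and 0 to 3 with 1 array left out; the higher ones numbered 1, Brd2, after quantile normalization and after cyclic loess. Members without overlap numbered 6 lower after each scaling, and 6 higher after quantile normalization, 4 after centring and 5 after cyclic loess. With 1 array left out they were 15 to 18 of the 25 lower and 2 to 5 higher, in a comparison that is easier to pass. There 43.3% to 54% of all genes were lower without overlap and 20.7% to 26.4% higher. The median change of the members was -0.032 after quantile normalization, -0.071 after centring, -0.040 after cyclic loess and -0.27 to -0.094 with 1 array left out. The cause of these moves was not tested.

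Signs turned for Pbrm1 (0.15 after quantile normalization, 0.078 after centring, 0.14 after cyclic loess), Trim28 (0.088, 0.016 and 0.061), Brwd1 (0.11, 0.061 and 0.085), and, after quantile normalization and cyclic loess, Smarca4 (0.031 and 0.016), Trim33 (0.014 and 0.0049) and Phf10 (0.029 and 0.015). With 1 array left out, Brd8 ranged from -0.062 to 0.25, Brd9 from -0.033 to 0.098, Brdt from -0.40 to 0.021, Brpf3 from -0.20 to 0.37 and Pbrm1 from -0.086 to 0.0076; 16 of the 25 members kept their sign under every alternative. No label says that replicate numbers pair samples, and the replicate differences of the 2 groups correlated at r = 0.0967 across genes. The replicate block left the median of the members at -0.19, with 0 members past the test. Fits without 1 array assume that the lone sample varies like the other group. The arrays carry no detection calls, so low signals such as that of Brdt cannot be told from background.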
